A study of Mus musculus with 16 samples.

Results

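The messenger RNA of glycolysis and glycogen metabolism was followed in cultured mouse muscle cells before and after fusion into myotubes, and after forced expression of the homeobox gene msx2 in the myotubes. The genes were chosen by symbol, with earlier results of these data known. They comprised the enzymes from hexokinase to lactate dehydrogenase and those that make and remove fructose 2,6-bisphosphate and fructose 1,6-bisphosphate. The enzymes and scaffold proteins that build and break down glycogen were also included. Of 38 listed genes 37 were measured, among 19799 genes with a symbol, and all 37 were among the 16245 genes that passed the filter on low counts. Phkg2, a catalytic subunit of phosphorylase kinase, was not analysed here.

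RNA sequencing counts came from 16 libraries in 6 groups, all made from pmi28, a line of mouse myoblasts. One transgenic line carried doxycycline-inducible msx2 together with GFP (the msx2 line) and the other carried inducible GFP alone (the GFP line) and served as its control, and all libraries used here came from these transgenic lines. Each line gave 2 libraries of uninduced myoblasts, 3 of uninduced isolated myotubes and 3 of isolated myotubes treated with 2 µg/ml doxycycline for 24 h. Myotubes formed during 3 days in 10% horse serum, were collected on a mesh and were cultured with AraC, which kills dividing cells, whereas doxycycline was given in growth medium with 20% fetal bovine serum. The medium of the uninduced myotubes over the same hours is not stated in the labels, so within a line the change of serum cannot be told apart from that of the transgene. The GFP line received the same doxycycline treatment. From myoblasts to myotubes, the horse serum, the mesh and AraC came together with fusion, so their parts cannot be told apart. Differentiation below stands for all of these together. Nothing in the labels says that the replicates were separate cultures. The p-values therefore rest on variation among these samples that could be technical.

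Glycolysis splits glucose into pyruvate, which lactate dehydrogenase can reduce to lactate, and it supplies ATP quickly during contraction. Many of its steps are catalysed by different isoenzymes, encoded by separate genes, in muscle and in most other cells. Skeletal muscle also stores glucose as glycogen, which glycogen synthase builds and glycogen phosphorylase degrades, and phosphorylase kinase and the glycogen-targeting subunits of protein phosphatase 1 set the activity of both enzymes.

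Total counts per library lay between 19784873 and 33092666. Levels are CPM, the count of a gene scaled to library size and normalized by TMM. Changes are log2 fold changes ± standard error from one edgeR quasi-likelihood model of all libraries, and a gene passed the test when its p, adjusted over all genes by Benjamini-Hochberg, was under 0.05. The induced gene Msx2 stood at 1344 to 1514 CPM in induced msx2-line myotubes, at 12.1 to 15.9 CPM in uninduced ones and at 0.803 to 1.59 CPM throughout the GFP line, so the msx2 line had Msx2 transcripts without doxycycline. The summed level of 10 myotube marker genes was 400 to 413 CPM in GFP-line and 1141 to 1145 CPM in msx2-line myoblasts, and 25788 to 32148 CPM in uninduced myotubes of both lines. The markers of cycling cells fell from 1519 to 1951 CPM in myoblasts to 127 to 194 CPM in uninduced myotubes, and markers of adipocytes and liver did not exceed 1.86 CPM in any library. Macrophage markers stood at 21.5 to 34.5 CPM throughout. Fibroblast markers stood at 2195 to 3224 CPM in myoblasts and 453 to 1230 CPM in uninduced myotubes. For neuronal markers these ranges were 330 to 411 CPM and 219 to 356 CPM. In bulk RNA, fewer cells of a kind and less RNA per cell cannot be told apart. Near-identical gene copies and retrotransposed pseudogenes exist for Gapdh, Pgam1, Eno1, Ldha, Aldoa, Pgk1 and Tpi1. How the counting treated such reads is not given in the sources used here, so the levels of these genes are less certain.

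Most muscle isoforms were higher, and most of their counterparts lower, in uninduced myotubes than in myoblasts. In the GFP line 21 of the 37 genes rose and 13 fell from myoblasts to uninduced myotubes, where 77.7% of all genes passed the test, 39.8% of all genes rose and 37.9% fell. In the msx2 line 20 rose and 14 fell, against 79.8% of all genes (40.8% higher and 39.0% lower). The median log2 change of the 37 genes was 0.50 in either line, and that of all genes tested was 0.06 in the GFP line and 0.08 in the msx2 line. Of the 9 isoforms that muscle is known to favour and that were listed in pairs with another form, 8 rose and 1, Ldha, fell in both lines. Of the 11 isoforms of the same enzymes known from other tissues, 4 rose (Pfkp, Eno2, Pygl and Phka2) and 6 fell (Hk1, Pfkl, Aldoc, Pgam1, Eno1 and Pygb), and Ldhb did not pass. Of the 21 genes that rose in the GFP line 20 also rose in the msx2 line, and all 13 that fell did so again, against 88.4% and 90.4% of all such genes; these comparisons share no library. The libraries of the groups did not overlap for 34 of the 37 genes in either line, and for 86.6% (GFP line) and 85.7% (msx2 line) of all genes.

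**Figure D1:**
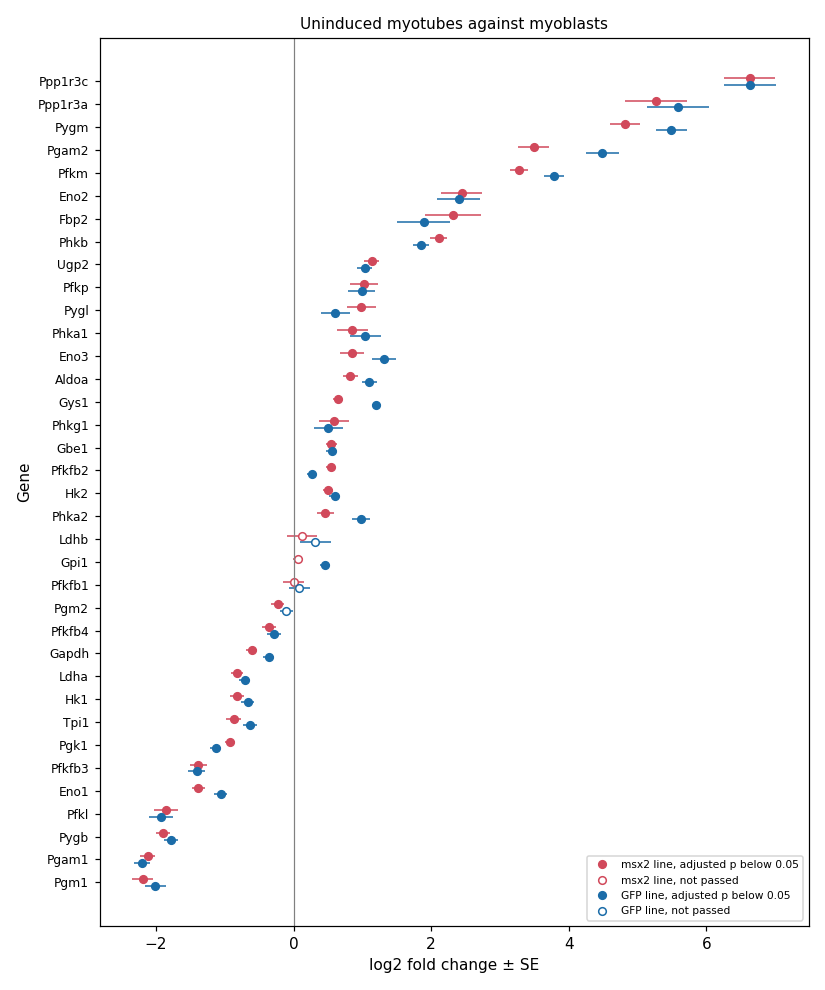
Log2 fold change of 36 genes (points) with its standard error (bars) between uninduced myotubes and myoblasts, in the msx2 line (red) and the GFP line (blue), ordered by the msx2-line value. Filled points passed the test. Ppp1r3c, Ppp1r3a, Pygm, Pgam2 and Pfkm lie farthest to the right, and Pgm1, Pgam1, Pygb and Pfkl farthest to the left, in both lines. Aldoc, with very few reads, is not drawn.

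Hexokinase phosphorylates glucose as it enters the cell. Hk1, the form found in most tissues, was at 134 and 128 CPM in GFP-line myoblasts and at 86.9, 89.1 and 71.9 CPM in myotubes, and at 163 and 147 CPM in myoblasts and 89.1, 93.4 and 80.9 CPM in myotubes of the msx2 line. Hk2, the insulin-responsive form of muscle, was at 63.4 and 58.1 CPM in GFP-line myoblasts and 89.9, 91.3 and 94.2 CPM in myotubes, and at 68.9 and 63.0 CPM in myoblasts and 88.9, 101 and 90.3 CPM in myotubes of the msx2 line. The groups did not overlap for either gene, with Hk1 low and Hk2 high in myotubes. Hk1 changed by -0.67 ± 0.10 and -0.82 ± 0.10, and Hk2 by 0.60 ± 0.08 and 0.50 ± 0.07, in the GFP and the msx2 line. Per kilobase of exon the summed hexokinase level was 37.9 and 33.4 CPM per kb in myoblasts and myotubes of the GFP line, while the share of Hk2 in it went from 28.6% to 49.1%. Gpi1, the next enzyme of the pathway, was higher in GFP-line myotubes (0.46 ± 0.07) and did not pass in the msx2 line (0.06 ± 0.07).

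Phosphofructokinase commits fructose 6-phosphate to glycolysis, and its muscle subunit Pfkm rose strongly with differentiation. Pfkm was at 43.5 and 42.6 CPM in GFP-line myoblasts and at 667, 594 and 519 CPM in myotubes. In the msx2 line it was at 56.2 and 57.7 CPM and at 635, 507 and 514 CPM. Every myotube library was above every myoblast library, by 13.8-fold in the GFP line (log2 change 3.78 ± 0.14) and 9.69-fold in the msx2 line (3.28 ± 0.14). The liver subunit Pfkl went the other way, from 121 and 123 to 31.0, 24.7 and 40.1 CPM in the GFP line and from 148 and 142 to 43.6, 35.9 and 40.3 CPM in the msx2 line. It fell in both lines, by 3.80-fold and 3.63-fold (log2 changes -1.93 ± 0.17 and -1.86 ± 0.17). The platelet subunit Pfkp rose, from 62.8 and 60.7 to 140.0, 104 and 124 CPM in the GFP line and from 79.6 and 72.4 to 194, 116 and 154 CPM in the msx2 line. Its log2 changes were 0.99 ± 0.20 and 1.02 ± 0.20, again without overlap. Per kilobase, Pfkm made up 23.4% of the summed phosphofructokinase level in GFP-line myoblasts and 84.1% in myotubes, and the sum itself rose from 61.3 to 234.9 CPM per kb. In the msx2 line the share of Pfkm was 25.2% and then 79.9%.

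Fructose 2,6-bisphosphate is the main allosteric activator of phosphofructokinase, and the 4 Pfkfb genes encode the enzymes that make and remove it. Pfkfb3, the form with the highest kinase activity, was at 28.6 and 28.3 CPM in GFP-line myoblasts and 8.75, 12.0 and 11.2 CPM in myotubes, and at 29.9 and 27.4 CPM in myoblasts and 9.43, 11.5 and 11.8 CPM in myotubes of the msx2 line. It fell in both lines with no overlap, with log2 changes of -1.41 ± 0.13 and -1.39 ± 0.13. Pfkfb2 rose by 0.26 ± 0.07 in the GFP line and by 0.54 ± 0.07 in the msx2 line. Pfkfb4 had changes of -0.28 ± 0.10 and -0.36 ± 0.10; both passed, but the GFP-line call was lost without myoblast library 1 (adjusted p 0.124) or myotube library 3 (adjusted p 0.0806), and a filter of 5 CPM ended both calls. Pfkfb1 stayed between 3.52 and 5.15 CPM in all 16 libraries and passed in neither line. Fbp2, the muscle form of fructose 1,6-bisphosphatase, which reverses the phosphofructokinase step, was at 1.07 and 1.00 CPM in GFP-line myoblasts and 5.61, 3.43 and 2.77 CPM in myotubes, and at 0.579 and 0.987 CPM in myoblasts and 5.39, 3.16 and 3.43 CPM in myotubes of the msx2 line. It rose by 1.89 ± 0.39 and 2.32 ± 0.40 without overlap, from a level near 1 CPM.

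Aldolase splits fructose 1,6-bisphosphate into triose phosphates. Aldoa, the muscle form, was at 872 and 901 CPM in GFP-line myoblasts and 2103, 1877 and 1727 CPM in myotubes, and at 1105 and 1063 CPM in myoblasts and 2110.4, 1961 and 1695 CPM in myotubes of the msx2 line. It rose without overlap, by 1.10 ± 0.10 and 0.83 ± 0.10. Per kilobase it was the most abundant of the measured genes in GFP-line myotubes, at 1043 CPM per kb against 934 CPM per kb for Gapdh. These means over 3 libraries each had SDs of 104 and 53.9 CPM per kb, and their difference was not tested. The brain form Aldoc was close to absent: it was at 0.560 and 0.547 CPM in GFP-line myoblasts, 0.152, 0.0369 and 0 CPM in GFP-line myotubes, 0.446 and 0.493 CPM in msx2-line myoblasts and 0.0499, 0.178 and 0.0623 CPM in msx2-line myotubes. Aldoc fell in both tests, but on so few reads that no fold change is given.

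Tpi1, Gapdh and Pgk1, enzymes with one main form in these cells, fell. Triosephosphate isomerase Tpi1 changed by -0.64 ± 0.11 and -0.87 ± 0.11 in the GFP and msx2 line, and Gapdh, which reduces NAD in the first energy-yielding step, by -0.36 ± 0.08 and -0.61 ± 0.08. Phosphoglycerate kinase Pgk1, which makes the first ATP of the pathway, was at 671 and 659.8 CPM in GFP-line myoblasts and 318, 294 and 297 CPM in myotubes, and at 651 and 661 CPM in myoblasts and 358, 372 and 310.0 CPM in myotubes of the msx2 line. Its log2 changes were -1.13 ± 0.07 and -0.92 ± 0.07, with all myotube libraries below all myoblast libraries. Gapdh, often used as a reference gene, lay at 1802 and 1792 CPM in GFP-line myoblasts and 1487, 1374 and 1330.4 CPM in myotubes, so its share of reads was not constant across differentiation.

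Phosphoglycerate mutase, which moves the phosphate of 3-phosphoglycerate, showed opposite changes of its isoforms. The muscle form Pgam2 was at 5.88 and 7.43 CPM in GFP-line myoblasts and at 174, 128 and 147 CPM in myotubes, and at 14.0 and 11.4 CPM in myoblasts and 173, 131 and 125 CPM in myotubes of the msx2 line. The brain and ubiquitous form Pgam1 was at 784 and 765 CPM in GFP-line myoblasts and at 150.4, 173 and 181 CPM in myotubes, and at 874 and 868 CPM in myoblasts and 176, 231 and 192 CPM in myotubes of the msx2 line. For both genes the groups lay far apart, in opposite directions. Pgam2 rose 22.4-fold and 11.2-fold (log2 changes 4.49 ± 0.24 and 3.49 ± 0.22), and Pgam1 fell 4.61-fold and 4.36-fold (-2.21 ± 0.12 and -2.12 ± 0.11). Per kilobase the summed level of both fell from 444 to 273 CPM per kb in the GFP line, while the share of Pgam2 went from 1.79% to 65.0%.

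The sequences before the start sites of this pair are shown because the 2 genes encode the same activity and moved in opposite directions. Among such pairs, this one and the phosphorylases Pygm and Pygb had the largest changes of the isoform ratio, and they were chosen with their values and motif matches known. They are the 250 bases upstream of the RefSeq start site on build GRCm38.p6, written 5′ to 3′ on the strand of the gene, with capitals for the E-box CAGCTG, a site preferred by myogenic factors such as MyoD and myogenin, and for the MEF2 motif. Pgam2 lies on the minus strand at chr11:5803797-5804046 and Pgam1 on the plus strand at chr19:41911621-41911870.
Pgam2: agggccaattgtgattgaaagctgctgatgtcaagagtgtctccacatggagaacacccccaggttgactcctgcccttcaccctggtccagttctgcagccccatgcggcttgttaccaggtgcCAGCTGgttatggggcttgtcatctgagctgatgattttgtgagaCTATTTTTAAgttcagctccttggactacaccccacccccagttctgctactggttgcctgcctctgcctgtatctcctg
Pgam1: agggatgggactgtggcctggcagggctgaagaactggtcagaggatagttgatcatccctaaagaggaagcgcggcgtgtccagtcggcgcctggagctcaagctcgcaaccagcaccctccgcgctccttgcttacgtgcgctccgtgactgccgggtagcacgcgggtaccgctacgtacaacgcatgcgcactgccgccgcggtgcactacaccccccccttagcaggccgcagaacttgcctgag
The Pgam2 sequence held CAGCTG at bases -125 to -120 and a MEF2 match at -80 to -71 from the start site, and the Pgam1 sequence held neither. A match describes these letters only and says nothing of binding in these cells.

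Enolase forms phosphoenolpyruvate. The muscle form Eno3 was at 493 and 476 CPM in GFP-line myoblasts and 1283, 1414 and 917 CPM in myotubes, and at 607 and 583 CPM in myoblasts and 1166, 1142 and 910.4 CPM in myotubes of the msx2 line. The ubiquitous form Eno1 was at 246 and 212 CPM in GFP-line myoblasts and 108, 116 and 106 CPM in myotubes, and at 274 and 262 CPM in myoblasts and 94.6, 114 and 98.3 CPM in myotubes of the msx2 line. Eno3 was thus already abundant in myoblasts, and every myotube library was higher for Eno3 and lower for Eno1. The log2 changes were 1.31 ± 0.18 and 0.85 ± 0.17 for Eno3, and -1.06 ± 0.09 and -1.39 ± 0.09 for Eno1. Per kilobase Eno3 held 77.3% of the enolase level in GFP-line myoblasts and 93.8% in myotubes. Eno2, the neuronal form, was at 3.55 and 2.69 CPM in GFP-line myoblasts and 16.4, 11.1 and 21.5 CPM in myotubes, and at 4.06 and 3.58 CPM in myoblasts and 21.3, 17.9 and 23.1 CPM in myotubes of the msx2 line. It rose without overlap (2.40 ± 0.31 and 2.45 ± 0.30), though it made up only 0.769% of the enolase level per kilobase in GFP-line myotubes.

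Lactate dehydrogenase was the only pair in which the muscle form fell. Ldha, the form that predominates in fast muscle, was at 1082 and 1039 CPM in GFP-line myoblasts and 697, 628 and 618 CPM in myotubes, and at 1259 and 1226 CPM in myoblasts and 776, 692 and 642 CPM in myotubes of the msx2 line. It fell without overlap (log2 changes -0.71 ± 0.08 and -0.82 ± 0.08). Ldhb, the heart form, was at 20.4 and 20.4 CPM in GFP-line myoblasts and 30.5, 27.6 and 18.5 CPM in myotubes, and at 19.5 and 19.2 CPM in myoblasts and 21.2, 23.4 and 18.6 CPM in myotubes of the msx2 line. Its groups overlapped in both lines, and it passed in neither line (0.31 ± 0.22 and 0.12 ± 0.22). Without GFP-line myotube library 3 it passed in the GFP line (log2 change 0.50, adjusted p 0.0329). Ldha kept most of the level per kilobase, with 97.3% in myoblasts and 94.6% in myotubes of the GFP line.

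**Figure D2:**
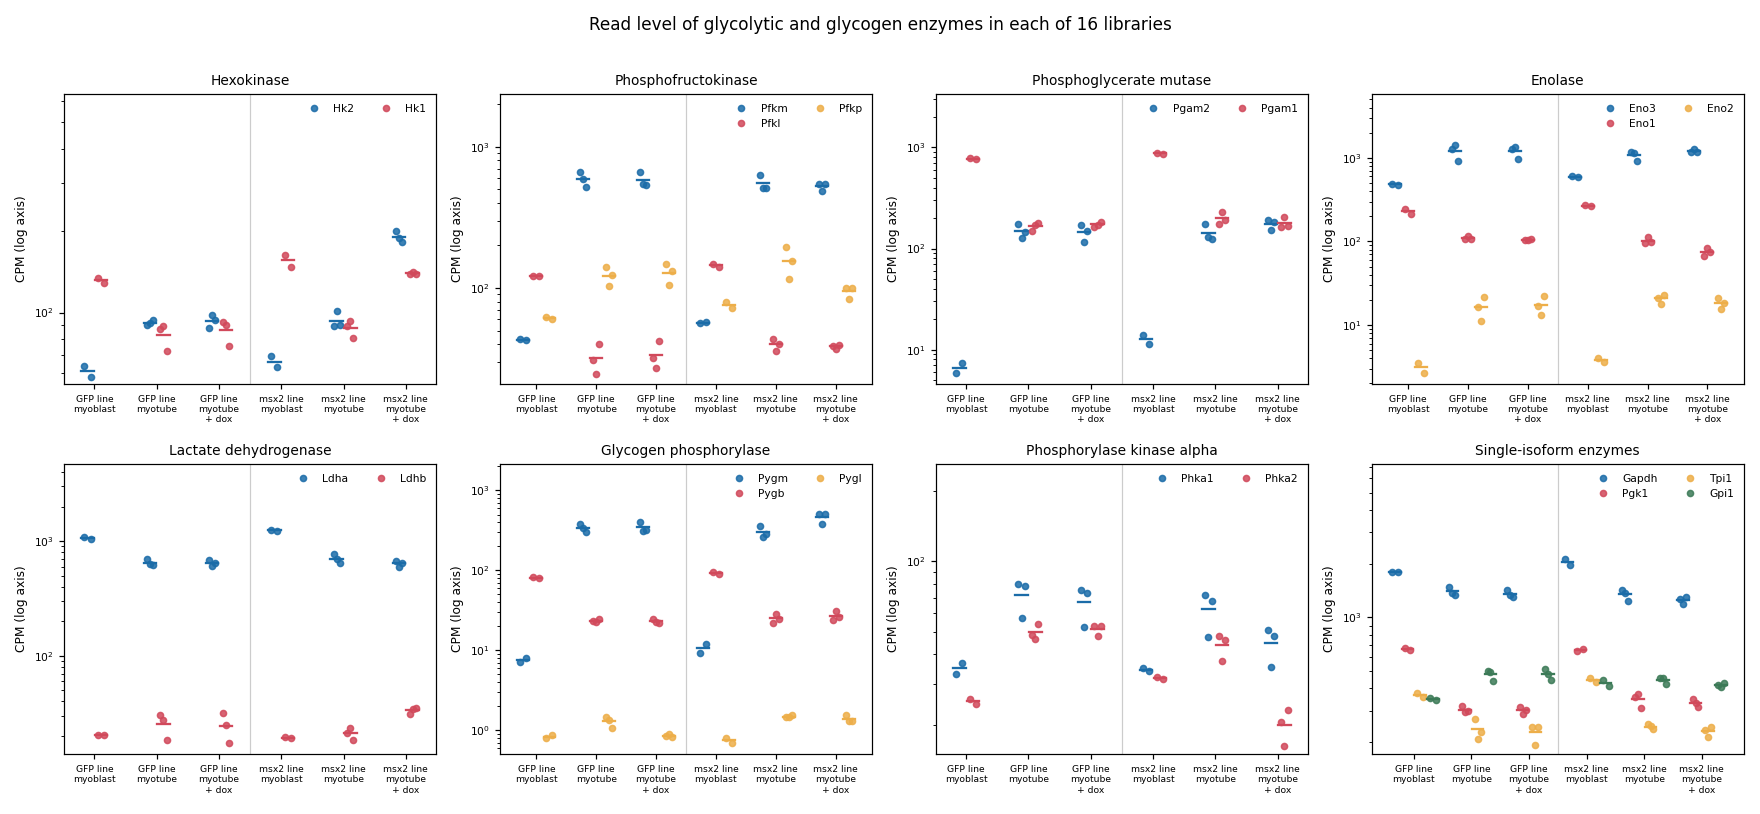
CPM on a log axis in each of 16 libraries (points) with the group mean (dash), for 7 enzyme families and for 4 enzymes with one main form; dox marks doxycycline and the grey line separates the GFP line from the msx2 line. Pfkm and Pfkl, and Pygm and Pygb, change places between myoblasts and myotubes, Pgam2 comes up to the level of Pgam1, and Ldha stays above Ldhb in every library.

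Glycogen phosphorylase, the enzyme that releases glucose 1-phosphate from glycogen, showed an exchange of isoforms as well. The muscle form Pygm was at 7.14 and 7.94 CPM in GFP-line myoblasts and at 384, 334 and 301 CPM in myotubes. In the msx2 line it was at 9.36 and 12.1 CPM and at 356, 264 and 288 CPM. Every myotube library lay far above the myoblasts of its line, and the fitted rise was 45.0-fold and 28.1-fold (log2 changes 5.49 ± 0.23 and 4.81 ± 0.22). The brain form Pygb was at 81.5 and 80.2 CPM in GFP-line myoblasts and 23.3, 22.5 and 24.4 CPM in myotubes, and at 96.4 and 90.6 CPM in myoblasts and 22.1, 28.3 and 24.7 CPM in myotubes of the msx2 line. It fell without overlap, by 3.45-fold and 3.73-fold (-1.79 ± 0.10 and -1.90 ± 0.10). Per kilobase Pygm made up 11.1% of the phosphorylase level in GFP-line myoblasts and 94.8% in myotubes, with 13.4% and 93.8% in the msx2 line. The liver form Pygl stayed under 1.6 CPM throughout. Its rise passed in both lines (0.61 ± 0.21 and 0.98 ± 0.21), but the GFP-line call, at an adjusted p of 0.0396, was lost without either myoblast library or without myotube library 1 or 2 (adjusted p 0.0889 to 0.167), and by DESeq2.

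The promoters of this pair, with the same conventions and for the same reason, were those of Pygm at chr19:6384158-6384407 and Pygb at chr2:150786546-150786795, both on the plus strand of GRCm38.p6 in RefSeq.
Pygm: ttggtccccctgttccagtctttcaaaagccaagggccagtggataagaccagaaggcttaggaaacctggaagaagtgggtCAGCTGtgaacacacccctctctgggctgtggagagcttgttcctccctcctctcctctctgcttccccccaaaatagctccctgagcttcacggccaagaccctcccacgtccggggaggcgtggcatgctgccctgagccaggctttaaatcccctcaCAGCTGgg
Pygb: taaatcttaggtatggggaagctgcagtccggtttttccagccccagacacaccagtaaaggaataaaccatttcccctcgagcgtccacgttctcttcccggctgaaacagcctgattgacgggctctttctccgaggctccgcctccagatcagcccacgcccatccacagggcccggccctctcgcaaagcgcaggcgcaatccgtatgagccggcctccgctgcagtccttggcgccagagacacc
Pygm held CAGCTG at bases -168 to -163 and again at -8 to -3, and Pygb held neither motif. In the other pairs that moved in opposite directions, neither motif stood in any window of Hk2, Hk1, Pfkm, Pfkl, Eno1 or Aldoc. CAGCTG stood in that of Eno3, at bases 38 to 43 after its start site, and in 1 of 3 windows of Aldoa. Over all 37 genes, 35 matched RefSeq windows of 300 bases (250 before and 50 after the start site). CAGCTG, searched on both strands, stood in the windows of 14 of the 35 genes and in 26.9% of their 52 windows, against 16.3% of all 32851 windows. The general E-box CANNTG, which includes CAGCTG, stood in 75.0% of the windows of the module and in 72.3% of all windows. The MEF2 motif stood in the windows of 3 genes (Pfkfb1, Pgam2 and Ppp1r3a), or 5.77% of the windows, against 3.19% of all. The homeobox core TAATTG stood in those of 2 genes (Pfkfb1 and Pfkm), or 3.85%, against 8.00% of all. ACGTG, the core of the site for low-oxygen factors, stood in those of 17 genes, or 40.4%, against 19.6% of all. Several windows of one gene overlap, so these shares are descriptions only. CCAAT stood in 38.5% of the windows against 37.4% of all.

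Phosphorylase kinase switches phosphorylase on when calcium rises. The alpha subunit of muscle, Phka1, was at 33.0 and 36.8 CPM in GFP-line myoblasts and 80.1, 57.4 and 78.4 CPM in myotubes, and at 34.9 and 33.9 CPM in myoblasts and 71.7, 47.5 and 67.8 CPM in myotubes of the msx2 line. The alpha subunit of liver, Phka2, was at 25.8 and 24.7 CPM in GFP-line myoblasts and 48.7, 46.6 and 54.0 CPM in myotubes, and at 32.0 and 31.5 CPM in myoblasts and 47.9, 37.3 and 45.9 CPM in myotubes of the msx2 line. Both rose without overlap, Phka1 by 1.04 ± 0.22 and 0.86 ± 0.22 and Phka2 by 0.98 ± 0.13 and 0.46 ± 0.13, so this pair showed no exchange. The regulatory subunit Phkb, common to all tissues, was at 34.2 and 36.3 CPM in GFP-line myoblasts and 138, 127 and 118 CPM in myotubes, and at 27.1 and 28.0 CPM in myoblasts and 136, 105 and 115 CPM in myotubes of the msx2 line. It rose 3.61-fold and 4.31-fold without overlap (1.85 ± 0.12 and 2.11 ± 0.12). The catalytic subunit of muscle, Phkg1, was scarce, at 2.71 and 2.10 CPM in GFP-line myoblasts and 3.84, 3.36 and 3.09 CPM in myotubes, and at 1.52 and 2.22 CPM in myoblasts and 2.99, 3.24 and 2.27 CPM in myotubes of the msx2 line. Its rises of 0.50 ± 0.21 and 0.59 ± 0.22 passed, but single libraries decided them. The GFP-line call was lost without myoblast library 2 or myotube library 1 or 2 (adjusted p 0.0631 to 0.281), and the msx2-line call without myoblast library 1 or myotube library 2 (adjusted p 0.0828 to 0.248).

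Of 7 genes of glycogen synthesis 5 rose in either line (Ugp2, Gys1, Gbe1, Ppp1r3a and Ppp1r3c), the gene listed as Pgm1 fell in both, and the gene listed as Pgm2 fell in the msx2 line and did not pass in the GFP line. Ugp2, which makes the UDP-glucose donor, was at 63.1 and 63.9 CPM in GFP-line myoblasts and 139.7, 115 and 136 CPM in myotubes, and at 50.5 and 53.6 CPM in myoblasts and 125, 102 and 117 CPM in myotubes of the msx2 line, a rise of 1.04 ± 0.11 and 1.14 ± 0.11. The muscle glycogen synthase Gys1 was at 69.0 and 68.2 CPM in GFP-line myoblasts and 155, 169.6 and 149 CPM in myotubes, and at 94.9 and 90.0 CPM in myoblasts and 149, 145 and 139.7 CPM in myotubes of the msx2 line, a rise of 1.20 ± 0.07 and 0.64 ± 0.07. For both genes all myotube libraries lay above all myoblast libraries. The branching enzyme Gbe1 rose by 0.55 ± 0.08 in either line.

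The glycogen-targeting subunits of protein phosphatase 1, which bring the phosphatase to the glycogen particle and favour synthesis, were among the genes that changed most. Ppp1r3c was at 0.653 and 0.365 CPM in GFP-line myoblasts and 51.7, 42.7 and 56.9 CPM in myotubes, and at 0.357 and 0.740 CPM in myoblasts and 58.2, 43.6 and 63.1 CPM in myotubes of the msx2 line. Ppp1r3a, the skeletal muscle subunit, was at 0.700 and 0.456 CPM in GFP-line myoblasts and 37.4, 24.0 and 22.1 CPM in myotubes, and at 0.668 and 0.452 CPM in myoblasts and 28.5, 16.6 and 19.6 CPM in myotubes of the msx2 line. Both were close to absent in myoblasts and present in every myotube library, with log2 changes of 6.64 ± 0.38 and 6.63 ± 0.37 for Ppp1r3c and 5.59 ± 0.45 and 5.27 ± 0.45 for Ppp1r3a. Folds from so low a start carry the wide errors given.

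Phosphoglucomutase joins glycogen to glycolysis. The symbols Pgm1 and Pgm2 have been exchanged between versions of the mouse gene names, and which enzyme each symbol held in these counts was not settled. The gene listed as Pgm1 was at 48.3 and 47.5 CPM in GFP-line myoblasts and 11.7, 11.7 and 12.2 CPM in myotubes, and at 57.4 and 53.6 CPM in myoblasts and 9.28, 15.4 and 11.4 CPM in myotubes of the msx2 line. It fell 4.02-fold and 4.59-fold without overlap (-2.01 ± 0.15 and -2.20 ± 0.15). The gene listed as Pgm2 was at 99.1 to 145 CPM across myoblasts and GFP-line and uninduced msx2-line myotubes. It did not pass in the GFP line (-0.10 ± 0.09), and its small fall in the msx2 line (-0.23 ± 0.09) was lost without myoblast library 1 (adjusted p 0.206) or myotube library 3 (adjusted p 0.105).

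The exchange was also tested as a ratio within each library, the log2 ratio of the muscle form to the other, with the myoblast and myotube labels rearranged within each line in all 100 ways (exact two-sided permutation test, smallest possible p 0.01). Over both lines the ratio rose by 7.00 for Pygm to Pygb, 6.15 for Pgam2 to Pgam1, 5.43 for Pfkm to Pfkl, 2.54 for Pfkm to Pfkp, 2.29 for Eno3 to Eno1 and 1.30 for Hk2 to Hk1, each with the smallest exact p of 0.01 (adjusted 0.01125 over 9 ratios). The ratio of Ldha to Ldhb fell by 0.97, with the same exact p. For Phka1 to Phka2 it rose by 0.22 (exact p = 0.12). The ratio of Aldoa to Aldoc rose by 3.80 at the same smallest p as the others, on very few Aldoc reads. A rise of the ratio is not always an exchange, since both Pfkm and Pfkp rose. The share of all gene pairs that reach this smallest p was not computed. For single genes, groups did not overlap for 86.6% (GFP line) and 85.7% (msx2 line) of all genes.

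The lines were then compared. The difference between the lines' differentiation changes passed for 2 of the 37 genes, with 8.28% of all genes passing (4.01% higher and 4.27% lower). Both were lower in the msx2 line. The log2 difference was -0.56 ± 0.09 for Gys1 (adjusted p 0.00151) and -0.40 ± 0.10 for Gpi1 (adjusted p 0.0289). The call of Gpi1 was lost without any one of 6 libraries: msx2-line myoblast 1, msx2-line myotube 3, either GFP-line myoblast, or GFP-line myotube 1 or 2 (adjusted p 0.0644 to 0.182). Pgam2 had a difference with a 95% interval of -1.59 to -0.40 on the log2 scale and did not pass (adjusted p 0.0606); it did without msx2-line myotube library 1 (log2 difference -1.16, adjusted p 0.0279) and by DESeq2 (adjusted p 0.005). Pfkm (-0.51 ± 0.17, adjusted p 0.0797) passed without the same library or without GFP-line myotube library 3 (adjusted p 0.0258 and 0.0411), and by DESeq2 (adjusted p 0.0397). Of the 10 myotube markers 8 also rose less in the msx2 line, whose myoblasts had more of them. Between the uninduced myotubes of the lines, edgeR called 0 of the 37 genes and 0.0616% of all genes (0.00616% higher and 0.0554% lower in the msx2 line). Unadjusted p was under 0.05 for 4 of them (Gys1, Pfkfb2, Pgam1 and Pgk1), and DESeq2 called 0. The libraries of the lines did not overlap for 1 of the 37 genes (Pfkfb2), against 13.2% of all genes.

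Within the msx2 line, induced myotubes differed in 2 of the 3 genes of sugar entry (Hk1 and Hk2, not Gpi1) and 4 of the 5 that control fructose bisphosphates. They also differed in 4 of 7 genes each of glycogen breakdown and of glycogen synthesis, and from aldolase to enolase only in Eno1 of 10 genes. Fewer passed in the difference from the GFP line, where 9.15% of all genes were more positive and 8.78% more negative. There 2 genes of sugar entry and 2 of fructose bisphosphate control were more positive, and Eno1 more negative. Glycogen breakdown had 1 more positive and 2 more negative, and synthesis 2 and 1. From uninduced to induced msx2-line myotubes 10 of the 37 genes rose and 7 fell, where 32.5% of all genes passed, 16.2% upward and 16.3% downward. The risers were Hk2, Hk1, Pfkfb4, Pfkfb3, Pfkfb2, Phkg1, Ldhb, Pygm, Pgm2 and Gys1. The fallers were Fbp2, Phka2, Ppp1r3a, Pfkp, Phkb, Ugp2 and Eno1. The median log2 change was -0.06 over the 37 genes and -0.01 over all genes. Groups did not overlap for 19 of the 37 genes, against 40.6% of all genes. Induced msx2-line myotubes also held less of the myotube markers, with a summed level of 13483 to 16470 CPM against 25788 to 30604 CPM, and 6 of those 10 markers fell. The cycling-cell markers stood at 119 to 158 CPM against 127 to 142 CPM, with log2 changes of its 8 genes between -0.13 and 0.59. Fibroblast markers spanned 453 to 1230 CPM before and 385 to 1247 CPM after induction, highest in the libraries numbered 2, and Tcf21 among them was at 0 before induction. The summed level of 5 neuronal markers went from 222 to 356 CPM down to 88.7 to 120.1 CPM. Only 1 of the 5 fell past the threshold and the other 4 did not pass (median log2 change 0.11). Of 6 macrophage markers 1 rose, 1 fell and 4 did not pass, where 16.2% of all genes rose and 16.3% fell. The part of these markers in the results that follow was not tested.

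**Figure D3:**
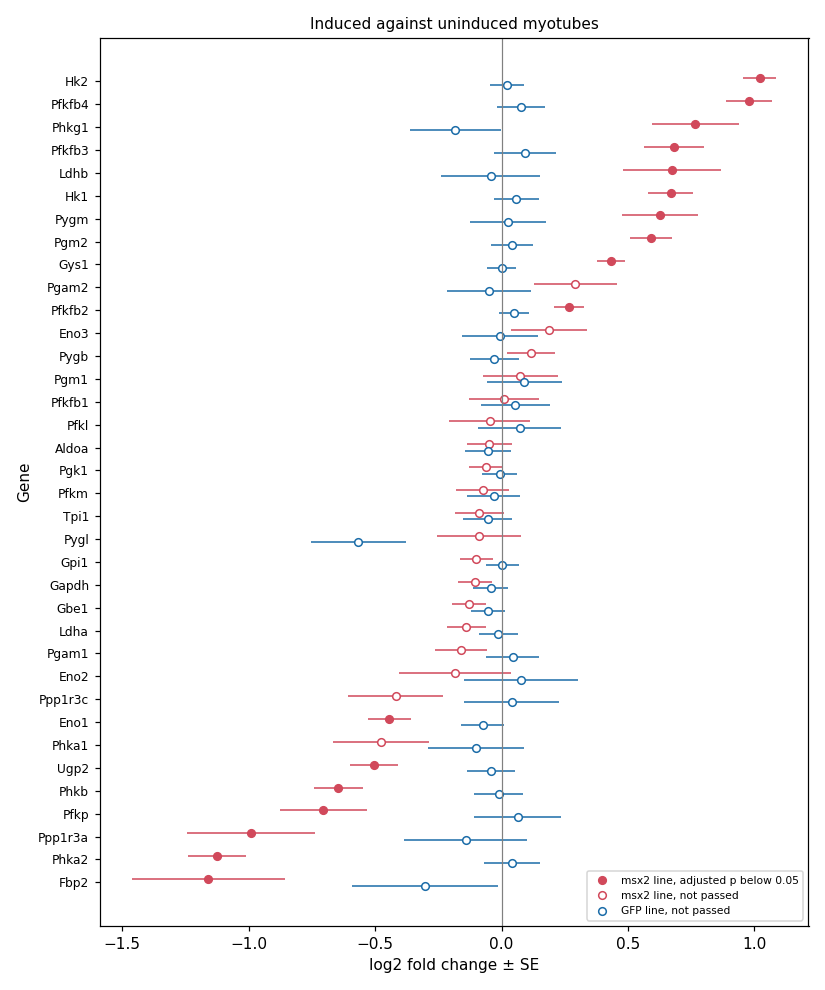
Log2 fold change of 36 genes (points) with its standard error (bars) between induced and uninduced myotubes, in the msx2 line (red) and the GFP line (blue), ordered by the msx2-line value. Filled points passed the test. Hk2 and Pfkfb4 lie farthest to the right and Fbp2 and Phka2 farthest to the left in the msx2 line, and no GFP-line point is filled. Aldoc, with very few reads, is not drawn.

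Doxycycline itself was controlled by the GFP line. There edgeR called 0 of the 37 genes and 0.0308% of all genes, with an unadjusted p under 0.05 for 1 of the 37 (Pygl, log2 change -0.57 ± 0.19), and DESeq2 called 0, also without adjustment. The groups did not overlap for 2 of the 37 genes (Pygl and the gene listed as Pgm1), against 5.23% of all genes. The difference between the inductions of the lines passed for 12 of the 37 genes, 7 more positive and 5 more negative in the msx2 line, against 17.9% of all genes (9.15% and 8.78% in these directions). With the replicate number as a block, which pairs the myotube libraries, 16 of the 37 passed: Ppp1r3a, Ldhb, Pygm and Ppp1r3c were added.

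Both hexokinases rose. Hk2 was at 88.9, 101 and 90.3 CPM in uninduced and 199, 187 and 182 CPM in induced msx2-line myotubes, while GFP-line myotubes had 89.9, 91.3 and 94.2 CPM without and 87.8, 97.6 and 94.1 CPM with doxycycline. Every induced msx2-line library was above all other libraries of either line, and Hk2 rose 2.03-fold (1.02 ± 0.07; difference from the GFP line 1.00 ± 0.09, adjusted p 3.57e-06). Hk1 was at 89.1, 93.4 and 80.9 CPM in uninduced and 138, 141 and 139 CPM in induced msx2-line myotubes, against 86.9, 89.1 and 71.9 CPM in uninduced and 92.1, 90.1 and 75.6 CPM in induced GFP-line myotubes. It rose by 0.67 ± 0.09 (difference 0.61 ± 0.13), to a level between those of GFP-line and msx2-line myoblasts. Per kilobase the summed hexokinase level went from 34.7 ± 2.27 to 62.5 ± 1.46 CPM per kb (SD, n = 3 each), and the share of Hk2 from 47.9% to 54.0%. Gpi1 did not pass (-0.10 ± 0.07).

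Among the phosphofructokinases Pfkp alone passed. It was at 194, 116 and 154 CPM in uninduced and 101, 83.9 and 99.8 CPM in induced msx2-line myotubes, and at 140.0, 104 and 124 CPM in uninduced and 147, 106 and 131 CPM in induced GFP-line myotubes. Pfkp fell, with a log2 change of -0.70 ± 0.17 and with no overlap in the msx2 line. Its difference between the lines (-0.77 ± 0.24, adjusted p 0.0434) was lost in 9 of 12 fits without one library (adjusted p 0.0633 to 0.102); it was kept without msx2-line uninduced library 2, GFP-line uninduced library 1 or GFP-line induced library 2. It was also lost without the low-count filter (adjusted p 0.062) and in a fit of only the groups compared (adjusted p 0.0727). Pfkm was at 635, 507 and 514 CPM in uninduced and 544, 485 and 544 CPM in induced msx2-line myotubes, and its groups overlapped (-0.07 ± 0.10). Pfkl was at 39.0, 37.0 and 39.8 CPM after induction, within the range before it.

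Of the 4 Pfkfb genes 3 rose on induction. Pfkfb4 was at 10.0, 11.0 and 11.2 CPM in uninduced and 21.6, 23.0 and 19.2 CPM in induced msx2-line myotubes, and at 10.7, 9.88 and 8.89 CPM in uninduced and 10.7, 10.3 and 9.92 CPM in induced GFP-line myotubes. It rose 1.97-fold (0.98 ± 0.09; difference 0.90 ± 0.13), above both groups of myoblasts. Pfkfb3 was at 9.43, 11.5 and 11.8 CPM in uninduced and 16.7, 19.9 and 16.2 CPM in induced msx2-line myotubes, and at 8.75, 12.0 and 11.2 CPM in uninduced and 11.1, 10.9 and 12.2 CPM in induced GFP-line myotubes. Its rise of 0.68 ± 0.12 left it below the myoblast level of 27.4 to 29.9 CPM. The difference of Pfkfb3 between the lines (0.59 ± 0.17, adjusted p 0.0242) was lost without msx2-line uninduced library 1, msx2-line induced library 2, GFP-line uninduced library 2 or 3, or GFP-line induced library 1 or 2 (adjusted p 0.0517 to 0.072). Pfkfb2 rose by 0.27 ± 0.06, and its difference between the lines did not pass (adjusted p 0.0888), except with the filter of 5 CPM (log2 difference 0.24, adjusted p 0.0404) and with block and GC offset (0.31, adjusted p 0.00657). Pfkfb1 did not pass. Fbp2, which works against phosphofructokinase, was at 5.39, 3.16 and 3.43 CPM in uninduced and 1.99, 1.26 and 2.03 CPM in induced msx2-line myotubes, and at 5.61, 3.43 and 2.77 CPM in uninduced and 4.11, 2.61 and 2.67 CPM in induced GFP-line myotubes. It fell 2.23-fold in the msx2 line (-1.16 ± 0.30). Its difference between the lines did not pass (-0.86 ± 0.42, adjusted p 0.19), except without GFP-line uninduced library 1 (log2 difference -1.18, adjusted p 0.0499).

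From aldolase to enolase 1 of 10 genes passed. Eno1 was at 94.6, 114 and 98.3 CPM in uninduced and 67.2, 84.1 and 74.2 CPM in induced msx2-line myotubes, and at 108, 116 and 106 CPM in uninduced and 103, 104 and 106 CPM in induced GFP-line myotubes. Eno1 fell, with a log2 change of -0.44 ± 0.09, farther from the 212 to 274 CPM of myoblasts. Its difference between the lines (-0.37 ± 0.12, adjusted p 0.0463) was lost in 9 of 12 fits without one library (adjusted p 0.057 to 0.117) and kept only without msx2-line uninduced library 1, msx2-line induced library 2 or GFP-line uninduced library 2. It was also lost without the low-count filter (adjusted p 0.0567), with the filter of 5 CPM (0.0523) and in a fit of only the groups compared (0.0662). Aldoa, Tpi1, Gapdh, Pgk1, Pgam1, Pgam2, Eno2 and Eno3 had log2 changes between -0.18 and 0.29, none past the threshold. With block and GC offset, Aldoa, Tpi1, Gapdh, Pgam1 and Eno2 passed as lower (adjusted p 0.0142 to 0.0473). Pgam2, at 173, 131 and 125 CPM in uninduced and 189.5, 153 and 182 CPM in induced msx2-line myotubes, passed with the replicate number as a block (log2 change 0.30, adjusted p 0.0414) and not without it (0.29 ± 0.16, adjusted p 0.203). Eno3 was at 1192, 1284 and 1188 CPM and Aldoa at 1881, 1748 and 1944 CPM after induction. The induced libraries lay just above the uninduced ones for Eno3 and within their range for Aldoa. Aldoc was at 0.296, 0.197 and 0.249 CPM after induction, too few reads for a call.

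The heart form of lactate dehydrogenase rose on induction. Ldhb was at 21.2, 23.4 and 18.6 CPM in uninduced and 31.1, 34.5 and 35.1 CPM in induced msx2-line myotubes, without overlap, and at 30.5, 27.6 and 18.5 CPM in uninduced and 31.6, 25.1 and 17.3 CPM in induced GFP-line myotubes, where libraries varied more. It rose by 0.67 ± 0.19 (adjusted p 0.0164), a call lost without msx2-line uninduced library 3 (log2 change 0.59, adjusted p 0.068) and without both msx2-line myotube libraries numbered 2 (0.74, adjusted p 0.0502). The difference of Ldhb between the lines (0.72 ± 0.28) had an adjusted p of 0.0963, and of 0.0244 with the replicate block. It also passed without GFP-line uninduced library 3 or GFP-line induced library 1 (adjusted p 0.0171 and 0.0239). Ldha did not pass (-0.14 ± 0.08). Per kilobase Ldhb went from 4.18% to 7.12% of the lactate dehydrogenase level.

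Glycogen phosphorylase and its kinase moved in different directions. Pygm was at 356, 264 and 288 CPM in uninduced and 512, 378 and 510.3 CPM in induced msx2-line myotubes, and at 384, 334 and 301 CPM in uninduced and 402, 310.4 and 323 CPM in induced GFP-line myotubes. It rose by 0.63 ± 0.15 with no overlap, and the induced library numbered 2 was the lowest of the 3. Its difference between the lines (0.60 ± 0.21) had an adjusted p of 0.0677, and of 0.0383 with the replicate block. It passed by DESeq2 as well, and without msx2-line uninduced library 1, msx2-line induced library 2 or GFP-line induced library 1 (adjusted p 0.0173 to 0.0341). Pygb and Pygl did not pass (0.12 ± 0.09 and -0.09 ± 0.17). Per kilobase the summed phosphorylase level went from 112 ± 15.9 to 169.8 ± 25.9 CPM per kb (SD, n = 3 each).

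Of the regulatory subunits of phosphorylase kinase Phka2 and Phkb fell, and the measured catalytic subunit rose. Phka2 was at 47.9, 37.3 and 45.9 CPM in uninduced and 20.5, 16.3 and 23.1 CPM in induced msx2-line myotubes, and at 48.7, 46.6 and 54.0 CPM in uninduced and 53.2, 47.9 and 52.7 CPM in induced GFP-line myotubes. It fell 2.18-fold (-1.13 ± 0.11; difference -1.17 ± 0.16, adjusted p 9.15e-05), below every myoblast library. Phkb was at 136, 105 and 115 CPM in uninduced and 82.5, 66.9 and 78.5 CPM in induced msx2-line myotubes, and at 138, 127 and 118 CPM in uninduced and 138, 122 and 119 CPM in induced GFP-line myotubes. It fell, with a log2 change of -0.65 ± 0.10 (difference -0.63 ± 0.14), and all induced libraries stayed above the myoblasts. Phka1 was at 71.7, 47.5 and 67.8 CPM in uninduced and 50.8, 35.5 and 47.7 CPM in induced msx2-line myotubes, with overlap. It did not pass (-0.48 ± 0.19, adjusted p 0.0729), but did with the replicate block (-0.47, adjusted p 0.00547), by DESeq2 (adjusted p 0.0247) and without uninduced library 2 (-0.64, adjusted p 0.0174). Phkg1 was at 2.99, 3.24 and 2.27 CPM in uninduced and 5.03, 4.29 and 5.05 CPM in induced msx2-line myotubes, and at 3.84, 3.36 and 3.09 CPM in uninduced and 3.45, 2.69 and 2.87 CPM in induced GFP-line myotubes. It rose 1.70-fold (0.77 ± 0.17; difference 0.95 ± 0.25).

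On the side of synthesis Gys1 rose while Ugp2 and a targeting subunit fell. Gys1 was at 149, 145 and 139.7 CPM in uninduced and 189, 191 and 204 CPM in induced msx2-line myotubes, and at 155, 169.6 and 149 CPM in uninduced and 155, 160.4 and 158 CPM in induced GFP-line myotubes. It rose by 0.43 ± 0.06 (difference 0.43 ± 0.08), above all other libraries. Ugp2 was at 125, 102 and 117 CPM in uninduced and 79.6, 80.4 and 82.0 CPM in induced msx2-line myotubes, and at 139.7, 115 and 136 CPM in uninduced and 137, 109 and 134 CPM in induced GFP-line myotubes. It fell, with a log2 change of -0.50 ± 0.09 and without overlap. Its difference between the lines (-0.46 ± 0.13, adjusted p 0.0236) was lost without msx2-line uninduced library 1 or 3, msx2-line induced library 1, GFP-line uninduced library 2, or GFP-line induced library 1 or 3 (adjusted p 0.0513 to 0.0648). The gene listed as Pgm2 was at 125, 119 and 108 CPM in uninduced and 189, 169 and 173 CPM in induced msx2-line myotubes and rose by 0.59 ± 0.08 (difference 0.55 ± 0.12). The gene listed as Pgm1 and Gbe1 did not pass.

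Ppp1r3a was at 28.5, 16.6 and 19.6 CPM in uninduced and 11.8, 8.43 and 12.1 CPM in induced msx2-line myotubes, and at 37.4, 24.0 and 22.1 CPM in uninduced and 32.2, 22.7 and 20.5 CPM in induced GFP-line myotubes. It fell 1.99-fold without overlap (-0.99 ± 0.25), to a level still far above the myoblasts. Its difference between the lines (-0.85 ± 0.35, adjusted p 0.124) passed with the replicate block (-0.83, adjusted p 0.00153) and without GFP-line uninduced library 1 (-1.11, adjusted p 0.0316). Ppp1r3c was at 58.2, 43.6 and 63.1 CPM in uninduced and 42.8, 34.8 and 45.7 CPM in induced msx2-line myotubes, with overlap. Its change of -0.42 ± 0.19 (adjusted p 0.109) passed with the block (-0.41, adjusted p 0.000825) and without uninduced library 2 (-0.56, adjusted p 0.0384), and so did its difference between the lines with the block (-0.44, adjusted p 0.0113).

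**Figure D4:**
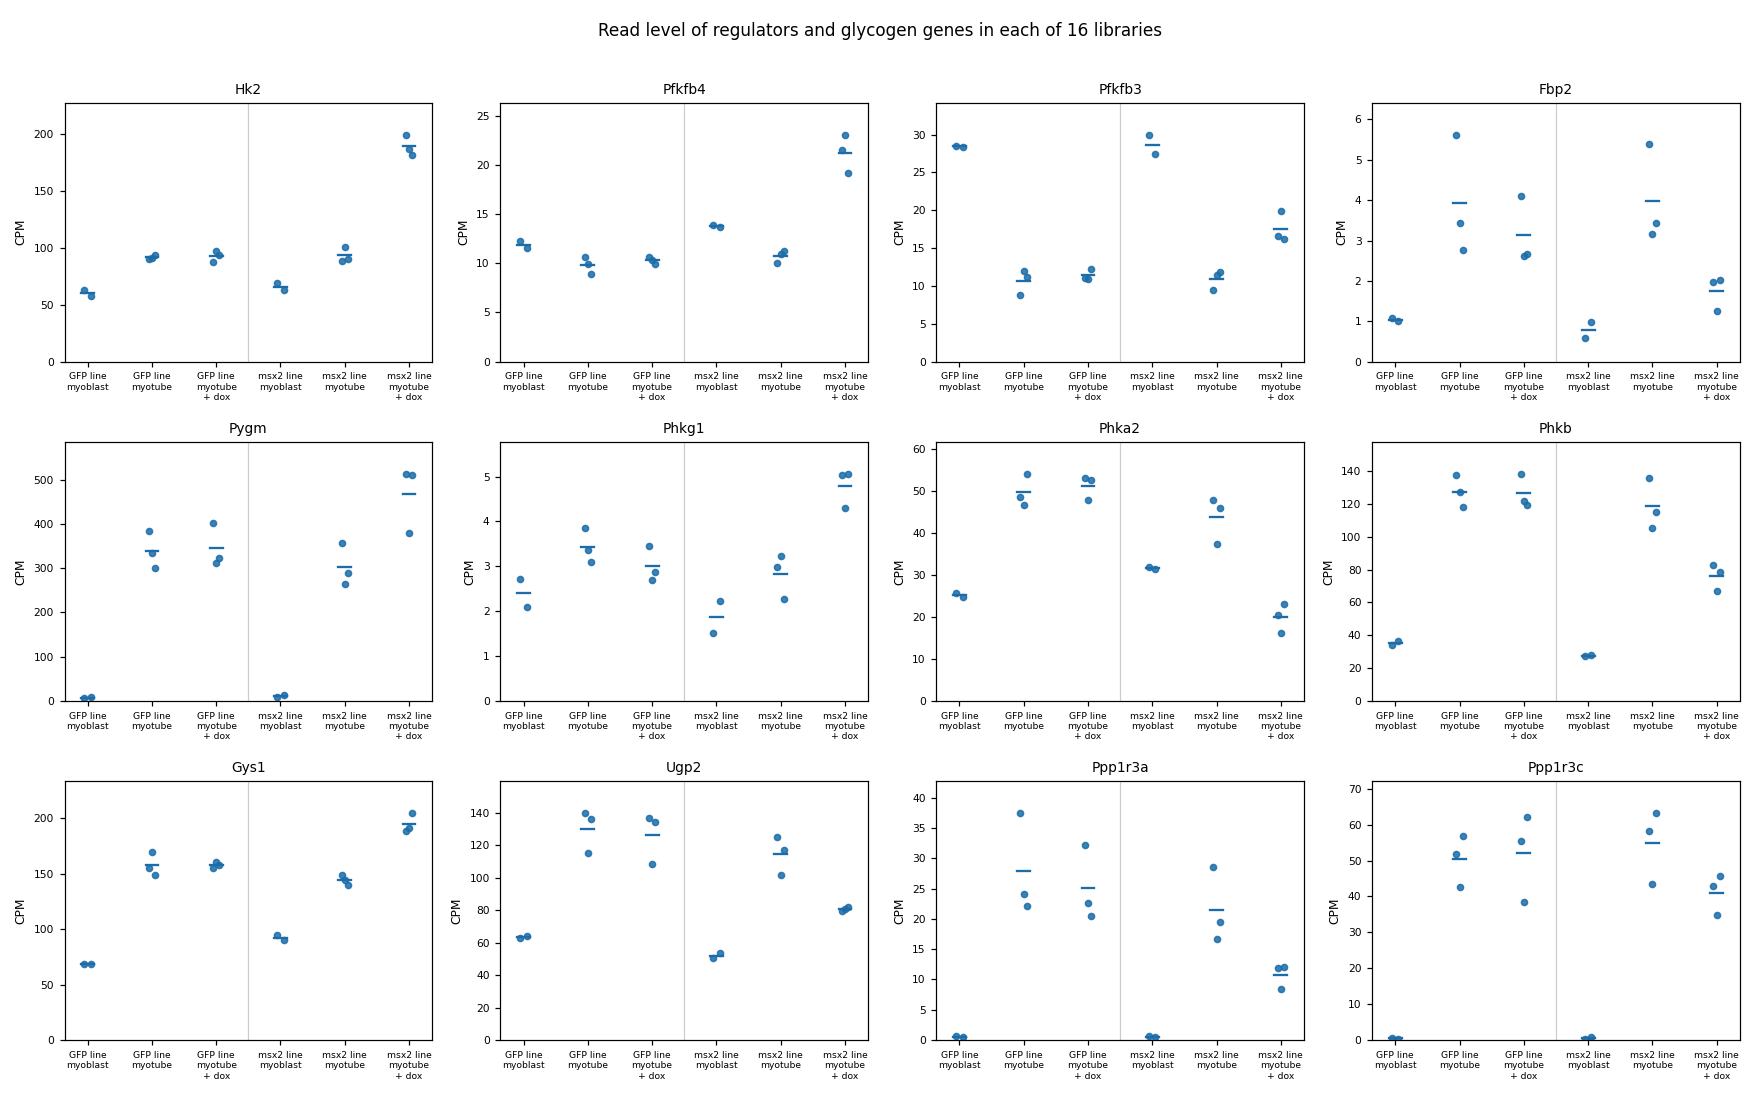
CPM in each of 16 libraries (points) with the group mean (dash) for 12 regulatory and glycogen genes; dox marks doxycycline, the grey line separates the GFP line from the msx2 line, and each axis starts at 0. Hk2, Pfkfb4 and Gys1 are higher in induced msx2-line myotubes than in any other library, and Phka2 is lower than in any other library.

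Of the 9 muscle isoforms listed in pairs, 3 rose on induction (Hk2, Pygm and Phkg1) and 0 fell past the threshold. Among the 11 other isoforms 2 rose (Hk1 and Ldhb) and 3 fell (Pfkp, Eno1 and Phka2), where 16.2% of all genes rose and 16.3% fell. The muscle forms Fbp2, Ppp1r3a and Gys1 were not listed in pairs and are not among the 9. Of these, Fbp2 and Ppp1r3a fell and Gys1 rose. With the replicate block Phka1 passed as lower and Pgam2 as higher, and with block and GC offset Phka1, Aldoa and Ldha passed as lower. For the ratios of isoforms, 3 against 3 libraries cannot go below an exact two-sided p of 0.10. The log2 ratio of Hk2 to Hk1 rose by 0.35, of Pfkm to Pfkp by 0.61, of Eno3 to Eno1 by 0.64 and of Phka1 to Phka2 by 0.66, and that of Ldha to Ldhb fell by 0.81, each at that smallest p. That of Aldoa to Aldoc fell by 1.38, also at the smallest p, on very few Aldoc reads. The ratio of Pgam2 to Pgam1 rose by 0.46 and of Pygm to Pygb by 0.50 (exact p = 0.2 each). Between libraries of the same number, the differences were 0.24, 0.39 and 0.75 for Pgam2 to Pgam1 and 0.39, 0.39 and 0.73 for Pygm to Pygb. Of the 9 ratios 8, Pfkm to Pfkl excepted, changed in one direction in all 3 such pairs, and each of the 8 had an exact two-sided sign-flip p of 0.25, the smallest that 3 pairs allow. The ratio of Pfkm to Pfkl changed by -0.03 (exact p = 0.7). In the GFP line the ratios of Pfkm to Pfkl, Pfkm to Pfkp, Pgam2 to Pgam1 and Phka1 to Phka2 fell in all 3 pairs. That of Eno3 to Eno1 rose in all 3. Each of these had the same sign-flip p of 0.25, with mean changes between -0.15 and 0.08. A single direction in all 3 pairs was therefore seen in both lines. The exact permutation p of the 9 ratios lay between 0.4 and 0.9 in the GFP line.

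Differentiation in the GFP line and induction in the msx2 line share no library, so their calls were set side by side. Of the 21 genes that rose with GFP-line differentiation, 5 rose with induction (Gys1, Hk2, Pfkfb2, Phkg1 and Pygm) and 6 fell (Phkb, Phka2, Ppp1r3a, Fbp2, Ugp2 and Pfkp), or 23.8% and 28.6%. Among all 6460 genes that rose with differentiation, 16.2% rose and 19.7% fell with induction. Of the 13 genes that fell with differentiation, 3 rose with induction (Hk1, Pfkfb3 and Pfkfb4) and 1 fell (Eno1). The corresponding shares of all 6156 such genes were 16.7% and 16.4%. The other 9, among them Pgam1, Pfkl, Pygb and Ldha, passed in neither direction.

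The GC content of a gene went with its change on induction. The median log2 change was -0.13 in the lowest and 0.18 in the highest of 10 equal groups of genes ordered by GC content. Within the module, the phosphoglucomutase genes left out, the median GC content was 53.0% for 9 risers and 48.0% for 7 fallers. It was 52.6% for the 19 genes not called, close to that of the risers. With a GC offset added to the replicate block, each of the 17 calls held, and Gpi1, Aldoa, Tpi1, Gapdh, Pgam1, Eno2, Ldha, Phka1 and Ppp1r3c passed as lower, with log2 changes between -0.41 and -0.16. That made 10 genes higher and 16 lower.

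Neighbouring pathways were described from fixed lists. Over all genes the median log2 change was 0.06 in GFP-line differentiation and -0.01 in msx2 induction, and the counts in these lists stand against 39.8% of all genes higher and 37.9% lower in GFP-line differentiation and 16.2% higher and 16.3% lower in msx2 induction. Of 16 other glycolytic and branch enzymes tested, 9 rose and 4 fell in GFP-line differentiation (median 0.45). Pkm, the pyruvate kinase that completes glycolysis, was at 2868 and 2930.5 CPM in GFP-line myoblasts and 1693, 1586 and 1679 CPM in myotubes (log2 change -0.81 ± 0.07); the counts do not separate its splice forms. Gpd1, cytosolic glycerol phosphate dehydrogenase, rose (2.92 ± 0.27) and its mitochondrial partner Gpd2 fell (-2.03 ± 0.14). On msx2 induction 3 of these genes rose and 3 fell (median -0.09), with Gpd1 (2.69 ± 0.15) up and Galm (-0.81 ± 0.12), Gpd2 (-0.68 ± 0.13) and Bpgm (-0.59 ± 0.07) down. Gpd2 thus fell in both comparisons.

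Of 16 other glycogen genes tested, 10 rose and 3 fell in GFP-line differentiation (median 1.10), against 39.8% and 37.9% of all genes. Lysosomal glucosidase Gaa (1.23 ± 0.08) and Pgm5 (4.62 ± 0.19) were among those that rose. On induction 4 rose and 4 fell (median -0.01), against 16.2% and 16.3% of all genes: the targeting subunits Ppp1r3b (1.68 ± 0.20) and Ppp1r3e (1.02 ± 0.20) were higher, and Gyg, the glycogenin that primes new particles, was lower (-0.80 ± 0.16). Different targeting subunits therefore changed in opposite directions on induction, with Ppp1r3a lower.

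Of 10 sugar and lactate carriers 3 rose and 4 fell in GFP-line differentiation (median -0.08; all genes 39.8% and 37.9%), while 5 rose and the other 5 did not pass on msx2 induction (median 0.32; 16.2% of all genes rose). Slc2a4, the insulin-responsive glucose transporter GLUT4, was at 2.05 and 2.37 CPM in GFP-line myoblasts, 5.92, 5.57 and 6.21 CPM in GFP-line myotubes, 5.69, 3.63 and 4.39 CPM in uninduced msx2-line myotubes and 35.3, 30.5 and 33.4 CPM in induced ones. It rose by 2.87 ± 0.14 on induction (difference from the GFP line 2.91 ± 0.20). Slc2a1, the general transporter GLUT1, was at 191 and 194 CPM in GFP-line myoblasts and 59.2, 69.7 and 59.8 CPM in myotubes (-1.61 ± 0.19). On induction it went from 60.9, 101 and 64.6 to 132, 158 and 114 CPM in the msx2 line, without overlap, and from 59.2, 69.7 and 59.8 to 56.8, 71.3 and 58.8 CPM in the GFP line. It rose in the msx2 line by 0.83 ± 0.17 (difference from the GFP line 0.85 ± 0.25, adjusted p 0.0316). This gene is named for induction with its values seen. Among 11 genes of pyruvate dehydrogenase and its control, 3 rose and 3 fell on induction (median 0.18). The inhibitory kinase Pdk2 rose (1.49 ± 0.13) and the activating phosphatase Pdp1 fell (-1.49 ± 0.12). Another such kinase, Pdk4, fell (-0.50 ± 0.12) and another such phosphatase, Pdp2, rose (0.41 ± 0.13), so neither kind moved in a single direction. In GFP-line differentiation 7 of the 11 genes rose and 4 fell (median 0.31).

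Of 12 pentose phosphate and hexosamine genes 10 fell and the other 2 did not pass in GFP-line differentiation (median -0.60), where 37.9% of all genes fell, led by Uap1 (-0.82 ± 0.06), Pgd (-1.26 ± 0.09) and Tkt (-2.61 ± 0.20), and on induction 1 rose and 2 fell (median -0.02). Among 20 regulators 10 rose and 5 fell in GFP-line differentiation (median 0.39), led by Myog (4.06 ± 0.10) and Mef2c (7.60 ± 0.24). On induction 8 rose and 6 fell (median 0.03), with the glucose-responsive factor Mlxipl (2.22 ± 0.24), the low-oxygen factor Epas1 (1.18 ± 0.19) and Esrra (0.57 ± 0.08) up and Mef2c (-1.31 ± 0.14) and the kinase Prkaa1 (-0.76 ± 0.09) down. Of 10 genes of the low-oxygen response 5 rose and 3 fell in GFP-line differentiation (median 0.76), and 4 rose and 2 fell on induction (median 0.54), with Vegfa (1.16 ± 0.11), Adm (3.08 ± 0.36) and Ndrg1 (1.30 ± 0.24) higher and Ankrd37 (-1.09 ± 0.27) and P4ha1 (-0.56 ± 0.14) lower.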

How the data were processed

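RNA sequencing counts per gene were deposited by the authors as whole numbers for 16 libraries, without normalization. The mouse build mm9 is named in the submitters' processing notes together with TopHat2 2.0.11, edgeR 3.6.8 and SAMtools 0.1.19. For the counting tool, its annotation and its use of strand, a statement was not given in the sources used. Rows that lack a symbol (67, with 0.0601% to 0.0878% of the counts per library) were left out of library sizes and tests.

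All 6 groups entered one quasi-likelihood model in edgeR 4.0.16, with limma 3.58.1 and R 4.3.3, with TMM scaling, after edgeR's filter on low expression at a minimum count of 10, and 7 comparisons were taken from it. P-values were adjusted over the 16245 genes tested in each comparison, with a threshold of 0.05. DESeq2 1.42.0 was an alternative, beside other scaling, filters, a replicate block, a GC offset, fits of only the groups compared and leaving out each library. Log2 ratios of isoforms were taken of counts plus a pseudocount of 0.5 (alternative 5) and exact permutation tests. Lengths for levels per kilobase came from GENCODE models on GRCm38, a later build than that of the counts. Promoter sequences came from RefSeq on GRCm38.p6, matched by symbol for 35 genes, and the phosphoglucomutase genes were left out because of their symbols.

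Replicate numbers pair the myotube libraries: the residuals of same-numbered induced and uninduced libraries of a line correlated at 0.21 to 0.51, which comes from the data, since the labels give only the number. Between the lines they correlated at 0.18 to 0.29 without and 0.09 to 0.25 with doxycycline. The block is one factor shared by both lines. The genes and lists were chosen with earlier results of these data known. Values in every library are given for isoform pairs and for other genes called with an absolute log2 change of at least 1, and the rest by ranges and changes. In each neighbouring list, up to 3 rising and 3 falling genes with the smallest adjusted p could be named. Some genes of these lists are counted but not reported by name here. The model was tested on simulated counts with known changes in 200 genes, with a spread that was set and not taken from these libraries. Of 1.5-fold changes it recovered 24% in msx2 induction and 17.5% in GFP-line differentiation. Of 2-fold changes it recovered 86% and 72.5%. A gene that did not pass is therefore not shown to be unchanged.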

Additional observations from a re-analysis of the deposited data

Results flagged for a closer look

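The difference between the lines, tested as an interaction term in edgeR's quasi-likelihood model, singled out 14 results. For msx2 induction, the log2 change in the msx2 line minus that in the GFP line was 1.00 for Hk2, 0.95 for Phkg1, 0.90 for Pfkfb4, 0.61 for Hk1, 0.59 for Pfkfb3, 0.55 for the gene listed as Pgm2 and 0.43 for Gys1. It was -1.17 for Phka2, -0.77 for Pfkp, -0.63 for Phkb, -0.46 for Ugp2 and -0.37 for Eno1. For differentiation, the change in the msx2 line minus that in the GFP line was -0.56 for Gys1 and -0.40 for Gpi1. Single libraries were not tested as outliers of their groups, which hold 2 or 3 libraries.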

How the results depend on the processing

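No result changed its direction past the threshold under any alternative run. Of the single-gene results for the 37 genes, 498 kept their side of the threshold, 2 lost and 15 gained a call in msx2 induction, and the corresponding numbers were 432, 9 and 1 in msx2-line differentiation, 423, 16 and 3 in GFP-line differentiation, 684, 35 and 18 in the difference of the inductions and 607, 7 and 13 in that of the differentiations. The filter of 5 CPM in 2 libraries raised the median log2 change of the genes it shares with the main fit by 0.17 in GFP-line and 0.21 in msx2-line differentiation, and small changes such as those of Pfkfb4, Pgm2 and Gpi1 crossed the threshold with it. The replicate block with a GC offset gave 16 genes of the module lower in msx2 induction, against 7. For the difference of the differentiations, the genes of the module that passed as lower numbered 6 with the replicate block, 4 with block and GC offset, 1 with only the groups compared and 5 with DESeq2 (1 to 4 with a library left out), and 1 passed as higher with the 5 CPM filter. Over all genes that comparison gave 407 higher with block and GC offset, and 1294 lower with the block, 384 with only the groups compared and 1116 with DESeq2, and leaving out a library gave 255 to 821 higher and 169 to 821 lower. For the difference of the inductions, 3 genes of the module passed as lower without a filter and 3 with only the groups compared, and 2 to 6 with a library left out. GFP induction over all genes gave 8 higher with the replicate block, 10 with block and GC offset, 3 with only the groups compared and 10 with DESeq2, and 3 to 7 with a library left out. It gave 1 lower with the block and 1 with block and GC offset. Between uninduced myotubes of the lines, the genes higher over all genes numbered 2 with RLE scaling, 5 without a filter, 4 with the 5 CPM filter, 81 with the block, 92 with block and GC offset and 55 with DESeq2, and 1 to 6 with a library left out. Those lower numbered 15 without a filter, 92 with the block, 186 with block and GC offset, 0 with only the groups compared and 99 with DESeq2, and 1 to 15 with a library left out. The cause of these shifts was not tested. One alternative was chosen after seeing the data: without both msx2-line myotube libraries numbered 2, 9 genes of the module rose and 7 fell in msx2 induction, and 8 and 5 passed in the difference of the inductions. In differentiation the groups share 2 replicate numbers, and the residuals of same-numbered libraries correlated between -0.01 and 0.01, so those libraries share only a number. The block there added Ldhb in the GFP line (log2 change 0.41, adjusted p 0.0465). The ratio of Phkg1 to Phkg2 was not run. Where levels are below about 1 CPM, as for Aldoc, Pygl and the myoblast values of Ppp1r3a and Ppp1r3c, depth limits the fold changes.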
